A study of Rattus norvegicus with 6 samples.

Results

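Genes of the G1 phase of the cell cycle, which decide on entry into DNA synthesis, and of the p53 arm of this control were followed in neonatal rat cardiac fibroblasts (NRCFs). The 10 genes are the cyclins Ccnd1, Ccnd2, Ccnd3 and Ccne1, the inhibitors of cyclin-dependent kinases (CDKs) Cdkn1a, Cdkn1b, Cdkn2a and Cdkn2b, and Mdm2 and Gdf15, which are targets of the transcription factor p53 (as is Cdkn1a). The genes were chosen by symbol, and all 10 were found among the 21857 symbols counted in each library. Of the 6 RNA-seq libraries, 3 carry the genotype label FTO overexpression and 3 the label WT, the latter being the group that received the empty plasmid (Vector), so that both groups were transfected. FTO is a demethylase that removes N6-methyladenosine (m6A) from RNA, and the study cloned its rat cDNA into pcDNA 3.1, a plasmid whose viral promoter is not limited to one cell type. The cells of both groups were primary cultures from the hearts of Sprague-Dawley rats at most 3 days old, although the strain label reads Noway. No source gives the number of animals or states that replicates came from separate cultures, so p-values measure the spread between these libraries only, which may be technical.

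Cells leave G1 when D-type cyclins bind CDK4 and CDK6 and cyclin E binds CDK2. These kinases phosphorylate RB, which then releases the E2F factors that drive genes for DNA synthesis. The INK4 inhibitors, among them Cdkn2a (p16) and Cdkn2b (p15), block CDK4 and CDK6. The CIP/KIP inhibitors, among them Cdkn1a (p21) and Cdkn1b (p27), act on cyclin-CDK complexes and chiefly on those of CDK2. The p53 factor turns on Cdkn1a as well as Mdm2, whose protein sends p53 for degradation. Fibroblasts proliferate when activated after cardiac injury, and the study examined their proliferation under FTO beside collagen production. The study reports less proliferation under hypoxia with FTO overexpression. It reads its RNA-seq as showing suppressed cell proliferation, and its m6A-seq as showing reduced pathways of DNA replication and the cell cycle.

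Total counts were 13178952 to 17857999 per library. Of 12941 genes that passed the filter on low counts, 65.9% passed the quasi-likelihood test of edgeR at a Benjamini-Hochberg adjusted p below 0.05 (33.2% higher, 32.8% lower, libraries labelled FTO against Vector), and in 70.3% the groups did not overlap. Fto was at 87.8, 89.6 and 87.4 CPM (counts per 1000000 reads, after TMM scaling of library sizes) in Vector replicates 1, 2 and 3 and at 93.2, 90.8 and 92.9 CPM in the libraries labelled FTO, a fold of 1.05 with a 95% confidence interval (CI) of 0.976 to 1.12 that did not pass (edgeR adjusted p = 0.24), although each library labelled FTO lay above each Vector library. Directions are therefore given for the libraries labelled FTO relative to Vector, without a measured increase in Fto in these libraries behind them. The study reports separate checks of its FTO plasmid in cardiac fibroblasts, by qRT-PCR and at the protein level. It also reports lower m6A on a dot blot with the plasmid.

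The labelled cell type was checked against markers, and markers of fibroblasts and of other heart cells differed between the groups. Summed over the list, the 10 fibroblast markers were at 41420 to 42000 CPM in Vector and at 21580 to 22560 CPM in the libraries labelled FTO, 5 being higher and 5 lower. Col1a1 (mean 25810 CPM in Vector, 8268 CPM with the FTO label) and Col3a1 (10700 and 3338 CPM) made up most of the Vector sum. The lower sum therefore reflects these collagen genes and not the list as a whole. The widest differences within this list were in Dcn, which encodes the matrix proteoglycan decorin, at 45.3 to 48.4 CPM in Vector and 5447 to 5861 CPM in the libraries labelled FTO (log2 fold change 6.90), and in Lum (3.15), Pdgfra (2.49) and, downward, Col3a1 (-1.68). The 8 macrophage markers were all lower, at 1486 to 1545 CPM against 164.5 to 187.6 CPM, with C1qb and C1qc at 1 or 2 counts in each library labelled FTO. Of 7 tested cardiomyocyte markers 6 were higher and 1 lower, with sums of 1458 to 1487 and 2175 to 2213 CPM, and Mb was at 1 to 12 counts throughout. Endothelial markers summed to 19.26 to 19.75 and 43.28 to 44.96 CPM (3 of 4 tested higher, with Emcn at 0 in each Vector library). Mural markers summed to 408 to 422.6 and 674.1 to 707.1 CPM (3 of 5 higher, 2 lower). Epicardial markers summed to 25.5 to 27.4 and 109.4 to 121.2 CPM (2 of 4 higher, 1 lower) and Schwann or neural markers to 7.24 to 9.19 and 5.03 to 5.75 CPM (2 of 3 lower). The part of these cells in the levels of the 10 genes was not tested, and in bulk libraries fewer cells of a type and less RNA per cell cannot be told apart.

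Of the 10 genes, 9 passed the adjusted threshold, 3 of them higher and 6 lower. This share of 90% is to be read against the 65.9% of all genes, and against a median absolute log2 fold change of 0.36 over all genes. Ccnd1, Ccnd2, Ccnd3, Cdkn1b, Mdm2 and Gdf15 were lower, Ccne1, Cdkn2a and Cdkn2b were higher, and Cdkn1a did not pass. In the same 9 genes the groups did not overlap, beside 70.3% of all genes. At the threshold of the study, a log2 fold change of at least 1 in either direction with an unadjusted p-value under 0.05, 2 of the 10 passed (Ccnd2 and Gdf15, both lower) against 19.6% of all genes. The median log2 fold change of the 10 genes was -0.21, beside 0.00 over all genes tested.

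**Figure D1:**
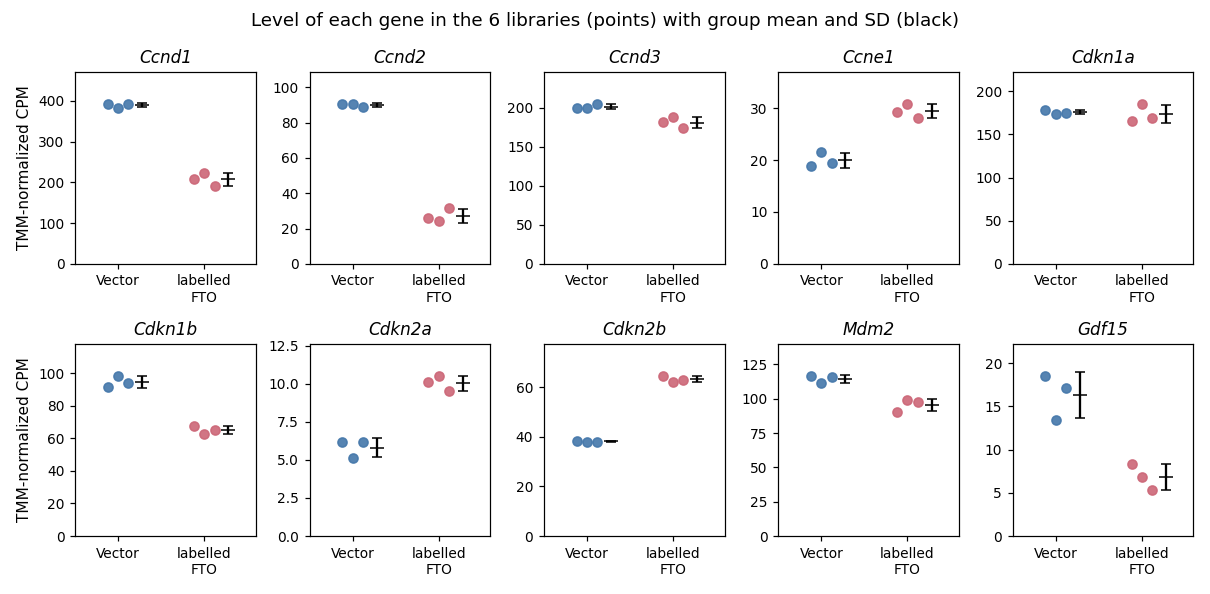
TMM-normalized CPM of the 10 genes in each library, 1 panel per gene with an axis from 0, with the 3 Vector libraries in blue, the 3 libraries labelled FTO in red, and the group mean with its SD in black. Only Cdkn1a overlaps between the groups, and Ccnd2 shows the widest gap relative to its level, from 88.9 to 90.7 CPM in Vector and from 24.1 to 31.5 CPM in the libraries labelled FTO.

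Ccnd1 encodes cyclin D1, the D-type cyclin that mitogens induce in fibroblasts. It stood at 393, 383.9 and 393 CPM in Vector replicates 1, 2 and 3 and at 209, 223 and 190.1 CPM in the libraries labelled FTO. The lowest Vector library lay far above the highest library labelled FTO, while replicate 3 was the lowest of the latter group. The level fell 1.88-fold (log2 fold change -0.91, SE 0.0519, edgeR adjusted p = 4.3e-10).

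Ccnd2 encodes cyclin D2 and had the largest change of the 10 genes. Its CPM was 90.7, 90.4 and 88.9 in Vector and 25.9, 24.1 and 31.5 in the libraries labelled FTO. The Vector libraries were close together, and replicate 3 of the libraries labelled FTO, the lowest of its group for Ccnd1, was the highest for Ccnd2. The level fell 3.29-fold (log2 fold change -1.72, SE 0.0787, edgeR adjusted p = 3e-11). Of all genes tested, 90.2% had a smaller absolute change than Ccnd2 and 78.4% a smaller one than Ccnd1.

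Ccnd3 encodes cyclin D3 and moved least of the 3 D-type cyclins. It was at 199.9, 199.7 and 205.1 CPM in Vector and at 182, 188 and 174 CPM in the libraries labelled FTO, so that the groups lay apart by a narrow margin. The log2 fold change was -0.16 (SE 0.0434, edgeR adjusted p = 0.0055), and the 95% CI of the fold ran from 0.842 to 0.958. In the RefSeq annotation of the rat assembly GRCr8, a pair of long non-coding RNAs overlap Ccnd3, and their reads cannot be told apart from those of Ccnd3 with a kit that does not mark strand.

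The 3 D-type cyclins are partly interchangeable partners of CDK4 and CDK6, so their make-up was examined within each library, which needs no scaling between libraries. Shares are of reads and not per transcript length. Ccnd1 gave 57.5%, 57% and 57.2% of the reads of the 3 genes in Vector replicates 1, 2 and 3, and 50.1%, 51.3% and 48% in the libraries labelled FTO. The 95% Wilson intervals, which cover counting error only, ran from 56 to 58.5% over the Vector libraries and from 46.9 to 52.6% over the others and did not meet. The difference was -7.4 percentage points, with p = 0.1 in a two-sided exact permutation test, the smallest p that 3 against 3 libraries can give.

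Ccnd2 gave 13.3%, 13.4% and 12.9% of these reads in Vector and 6.22%, 5.54% and 7.96% in the libraries labelled FTO. Ccnd3, although its own level was slightly lower, made up 29.6% ± 0.31 of the reads in Vector and 43.6% ± 0.41 in the libraries labelled FTO (mean ± SD, 3 libraries each). The log2 ratio of Ccnd1 to Ccnd2 reads was 2.12 ± 0.029 in Vector and 2.94 ± 0.31 in the libraries labelled FTO (mean ± SD, 3 libraries each). When Ccnd3 was set aside, the share of Ccnd1 among Ccnd1 and Ccnd2 reads was 7.08 percentage points higher, not lower, in the libraries labelled FTO.

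**Figure D2:**
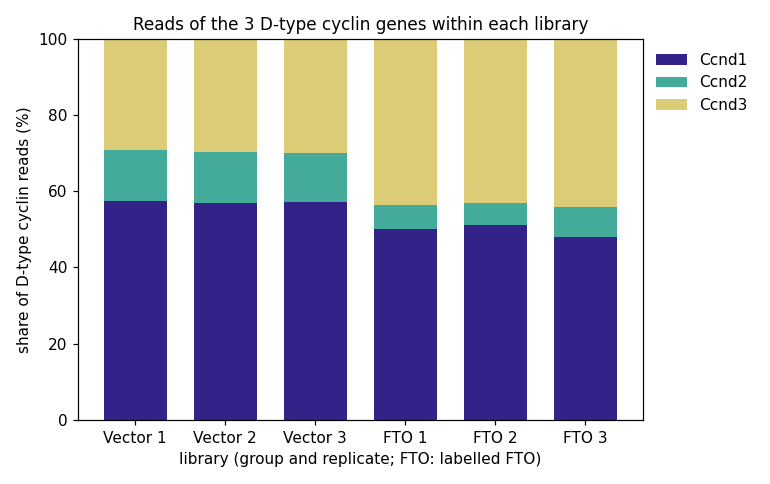
Share of the reads of Ccnd1, Ccnd2 and Ccnd3 in each of the 6 libraries, stacked to 100%. Ccnd3 takes 29.2 to 29.9% in the Vector libraries and 43.2 to 44% in those labelled FTO, while Ccnd2 takes 12.9 to 13.4% and 5.54 to 7.96%.

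Ccne1 encodes cyclin E1, the partner of CDK2 at the entry into S phase, and moved opposite to the D-type cyclins. It was at 18.8, 21.6 and 19.5 CPM in Vector and at 29.4, 30.9 and 28.2 CPM in the libraries labelled FTO, with each of the latter above each Vector library. The level rose 1.47-fold (log2 fold change 0.56, SE 0.0806, edgeR adjusted p = 2e-05). Ccne2, the other cyclin E gene, was tested outside this set and was lower. It went from 29.3 ± 1.42 to 25.4 ± 1.28 CPM (log2 fold change -0.20, edgeR adjusted p = 0.027). The log2 ratio of Ccne1 to Ccnd1 reads changed from -4.29 ± 0.12 to -2.81 ± 0.051 (mean ± SD, 3 libraries each), a difference of 1.48.

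The 2 INK4 genes were both higher. They lie next to each other on rat chromosome 5, with a single uncharacterised locus between them in GRCr8. Cdkn2a also encodes, from another first exon and reading frame, the ARF protein that inhibits Mdm2, and counts per gene symbol do not separate p16 from ARF. Because both genes rose, the 250 bases before an annotated start of each are shown (RefSeq, GRCr8, minus strand), at chr5:109107957-109108206 for Cdkn2a and chr5:109134856-109135105 for Cdkn2b. Capitals mark any match to the motifs listed further on, here a cyclic AMP response element (CRE, TGACGTCA) in Cdkn2b.
Cdkn2a: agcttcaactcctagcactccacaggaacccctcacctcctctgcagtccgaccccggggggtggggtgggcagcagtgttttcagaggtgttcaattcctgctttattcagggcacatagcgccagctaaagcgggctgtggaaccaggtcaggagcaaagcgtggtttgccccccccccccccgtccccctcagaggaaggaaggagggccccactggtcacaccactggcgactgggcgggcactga
Cdkn2b: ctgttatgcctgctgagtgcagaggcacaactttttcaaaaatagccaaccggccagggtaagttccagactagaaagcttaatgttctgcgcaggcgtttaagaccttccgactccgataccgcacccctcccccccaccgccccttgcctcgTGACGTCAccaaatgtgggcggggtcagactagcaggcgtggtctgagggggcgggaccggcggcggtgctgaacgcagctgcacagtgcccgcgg

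Cdkn2a had the lowest mean count of the 10 genes, with 76 to 89 in the Vector libraries and 139 to 170 in those labelled FTO. Its CPM was 6.14, 5.10 and 6.16 in Vector and 10.1, 10.5 and 9.49 in the libraries labelled FTO, without overlap. The level rose 1.73-fold (log2 fold change 0.79, SE 0.129, edgeR adjusted p = 6.9e-05).

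Cdkn2b was at 38.6, 37.9 and 38.2 CPM in Vector and at 64.6, 62.2 and 63.2 CPM in the libraries labelled FTO. Libraries of a group differed by little beside the gap between the groups. The level rose 1.66-fold (log2 fold change 0.73, SE 0.0558, edgeR adjusted p = 1.6e-08). The log2 ratio of Cdkn2b to Cdkn2a reads was 2.73 ± 0.15 in Vector and 2.66 ± 0.085 in the libraries labelled FTO (mean ± SD, 3 libraries each), a difference of -0.07 that was smaller than the spread within Vector.

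Of the CIP/KIP genes in this set, Cdkn1b was lower and Cdkn1a did not pass. Cdkn1c, a further member of the family tested outside this set, was higher at a low level. Cdkn1c was at 4.02, 3.02 and 4.36 CPM in Vector and at 5.19, 5.36 and 7.65 CPM in the libraries labelled FTO. Its log2 fold change was 0.70 (edgeR adjusted p = 0.0057), with 45 to 137 counts per library. Cdkn1b, whose protein p27 holds quiescent cells out of the cycle, was at 91.5, 98.2 and 94.0 CPM in Vector and at 67.8, 62.9 and 65.2 CPM in the libraries labelled FTO, again without overlap. It fell 1.45-fold (log2 fold change -0.53, SE 0.0528, edgeR adjusted p = 3.3e-07). The log2 ratio of Cdkn2b to Cdkn1b reads moved from -1.31 ± 0.063 to -0.04 ± 0.027 (mean ± SD, 3 libraries each).

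Cdkn1a, whose protein p21 is the best known mediator of arrest by p53, was at 178, 174 and 175 CPM in Vector and at 166, 186 and 169 CPM in the libraries labelled FTO. The 3 Vector values lay inside the range of the other group, with replicate 2 of the libraries labelled FTO above all Vector libraries and replicates 1 and 3 below. The log2 fold change was -0.02 (SE 0.0482, edgeR adjusted p = 0.76), and the 95% CI of the fold ran from 0.92 to 1.06. Only 2.85% of all genes had a smaller absolute change.

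**Figure D3:**
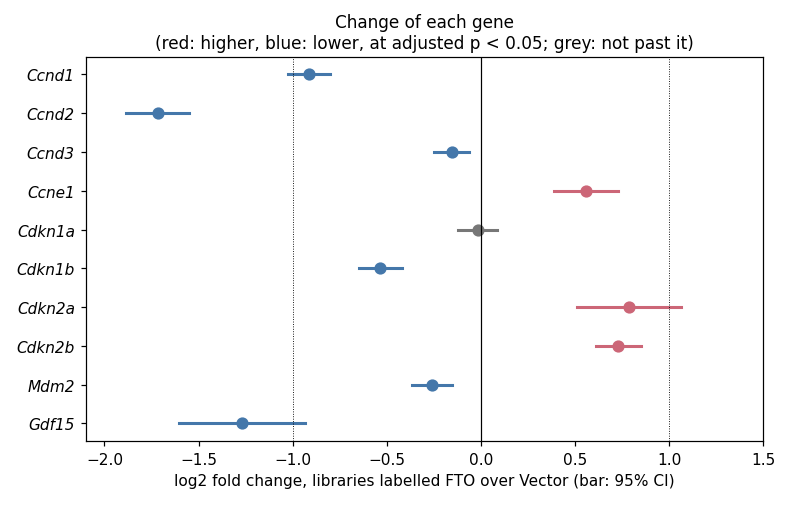
Log2 fold change of the 10 genes, libraries labelled FTO over Vector, with the 95% CI as a bar and dotted lines at a 2-fold change in either direction. Ccnd2 at -1.72 and Gdf15 at -1.27 lie beyond the lower line, Cdkn2a at 0.79 is the highest, and the interval of Cdkn1a spans 0.

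Mdm2 and Gdf15, like Cdkn1a, are activated by p53, and both were lower. Mdm2, the ubiquitin ligase and feedback inhibitor of p53, was at 117, 111 and 116 CPM in Vector and at 90.6, 99.1 and 97.3 CPM in the libraries labelled FTO. The groups did not overlap, and the level fell 1.2-fold (log2 fold change -0.26, SE 0.05, edgeR adjusted p = 0.00033). The log2 ratio of Mdm2 to Cdkn1a reads was -0.62 ± 0.024 in Vector and -0.86 ± 0.054 in the libraries labelled FTO (mean ± SD, 3 libraries each).

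Gdf15 encodes a secreted stress cytokine of the TGF-β superfamily that is induced by p53 and also by the ATF4 branch of the stress response. It had 253, 200 and 247 counts in Vector and 119, 90 and 96 in the libraries labelled FTO, and its CPM was 18.5, 13.4 and 17.1 against 8.35, 6.80 and 5.36. The spread within both groups was wide for this set of genes, but the groups lay apart. The level fell 2.41-fold (log2 fold change -1.27, SE 0.157, edgeR adjusted p = 4e-06). In GRCr8, Gdf15 overlaps Lrrc25, which was at 16.2 ± 0.464 CPM (SD) in Vector and 8.71 ± 1.64 CPM with the FTO label (3 libraries each), and the library kit named in the labels, NEBNext Ultra RNA, does not mark strand, so reads of the shared stretch cannot be assigned to either gene.

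The 250 bases before an annotated start of the 3 p53 targets are shown (RefSeq, GRCr8). Sites outside these windows were not searched, so the windows cannot show whether p53 acts on a gene. The window of Cdkn1a is chr20:7150682-7150931 on the plus strand, that of Mdm2 is chr7:55200792-55201041 on the minus strand, and that of Gdf15, the second of 2 annotated starts, is chr16:18839015-18839264 on the plus strand. Capitals mark a p53 half-site at bases -201 to -192 from the start in Cdkn1a and a CCAAT box on the opposite strand, at -105 to -101, in Mdm2.
Cdkn1a: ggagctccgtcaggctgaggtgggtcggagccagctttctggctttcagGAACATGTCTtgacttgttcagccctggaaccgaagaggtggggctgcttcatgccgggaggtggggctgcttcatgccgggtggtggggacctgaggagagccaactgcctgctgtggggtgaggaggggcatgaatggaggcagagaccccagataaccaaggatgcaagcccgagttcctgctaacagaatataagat
Mdm2: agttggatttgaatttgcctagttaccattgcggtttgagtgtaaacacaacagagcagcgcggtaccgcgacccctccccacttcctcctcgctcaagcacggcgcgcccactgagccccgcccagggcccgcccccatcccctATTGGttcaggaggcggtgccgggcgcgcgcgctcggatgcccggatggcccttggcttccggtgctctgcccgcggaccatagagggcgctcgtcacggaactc
Gdf15: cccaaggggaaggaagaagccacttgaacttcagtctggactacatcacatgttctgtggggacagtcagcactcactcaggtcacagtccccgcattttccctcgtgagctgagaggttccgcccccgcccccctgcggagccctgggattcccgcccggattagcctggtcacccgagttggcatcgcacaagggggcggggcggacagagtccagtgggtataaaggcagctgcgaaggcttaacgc

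Windows were found for 8 of the 10 genes, 9 windows in all as Gdf15 has 2, and were searched on both strands for 5 motifs, none of which is contained in another. A p53 half-site was found in 1 of 9 windows (Cdkn1a), against 6.64% of all 33469 rat promoters of the same length. The CRE was found in 1 of 9 (Cdkn2b, bases -96 to -89) against 1.59%, and the CCAAT box, CCAAT, in 4 of 9 (Ccnd3, Cdkn1b, Mdm2 and the first start of Gdf15) against 34%. E2F sites, searched as TTTCGCGC, TTTGGCGC, TTTCCCGC and TTTGCCGC, were found in 0 of 9 against 1.73%, and the ATF4 element TGATGNAAN in 0 of 9 against 3.38%. These matches describe the letters of the windows only.

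Around the 10 genes, 28 further genes of the cyclin, CDK, RB and E2F machinery were tested, and 18 passed, 10 higher and 8 lower (64.3%, against 65.9% of all genes). Their median log2 fold change was -0.04. Among called genes with a mean of at least 100 counts, the largest increases were those of Cdkn2c, the INK4 gene for p18, from 7.81 ± 0.492 to 12 ± 2.01 CPM (log2 fold change 0.62, edgeR adjusted p = 0.00088), and Tfdp2, a partner of E2F factors, at 0.60. The largest decreases were those of Rbl1, the RB relative p107, from 22.2 ± 1.56 to 13 ± 0.721 CPM (-0.76), and E2f6, a repressor E2F, from 102.5 ± 0.842 to 60.5 ± 4.08 CPM (-0.76). Cdk4, the partner of the D-type cyclins, was at 125 ± 2.16 and 128 ± 6.86 CPM and did not pass (edgeR adjusted p = 0.64), and Cdk6 (-0.26, edgeR adjusted p = 0.14) did not pass either. Cdk2, the partner of cyclin E, fell from 32.7 ± 0.916 to 25.1 ± 0.461 CPM (-0.38, edgeR adjusted p = 0.00016). Rb1 itself was lower by a log2 fold change of -0.69, while its other relative Rbl2 was higher (0.31, edgeR adjusted p = 0.00026).

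Genes of DNA replication and of mitosis were counted next. Of 32 DNA replication genes, 15 were higher, 2 lower and 15 did not pass, with a median log2 fold change of 0.18. The share called in either direction, 53.1%, was below the 65.9% of all genes, while 33.2% of all genes tested were called higher. Rrm2 and Rrm1, the subunits of ribonucleotide reductase, rose from 12.9 ± 1.84 to 27.6 ± 2.16 CPM (1.10) and from 152 ± 2.86 to 228 ± 9.26 CPM (0.58), with edgeR adjusted p = 2e-07 and 1.6e-08. The replication clamp gene Pcna (0.50) and the thymidine kinase gene Tk1 (0.51) rose as well. The 2 lower genes were Orc1 (-0.37) and Slbp, at 57.3 ± 1.48 and 51.4 ± 4.21 CPM, whose adjusted p-value of 0.04 rose above the threshold in 7 of 13 alternatives.

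Of 26 mitosis genes, 16 were higher, 3 lower and 7 did not pass, with a median of 0.33. The share called in either direction, 73.1%, was near the background of 65.9%. The 16 higher genes are to be read against the 33.2% of all genes tested that were called higher. Nuf2, of the kinetochore, rose from 27.5 ± 0.163 to 46.1 ± 3.96 CPM (0.75) and Birc5, which encodes survivin, from 16.9 ± 1.2 to 27 ± 4.46 CPM (0.67), with edgeR adjusted p = 2.9e-07 and 7.5e-05. Mki67, the gene of the proliferation marker Ki-67, went the other way, from 202 ± 6.8 to 163 ± 9.96 CPM (-0.31, edgeR adjusted p = 6.3e-05), as did the spindle motor gene Kif11 (-0.26).

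**Figure D4:**
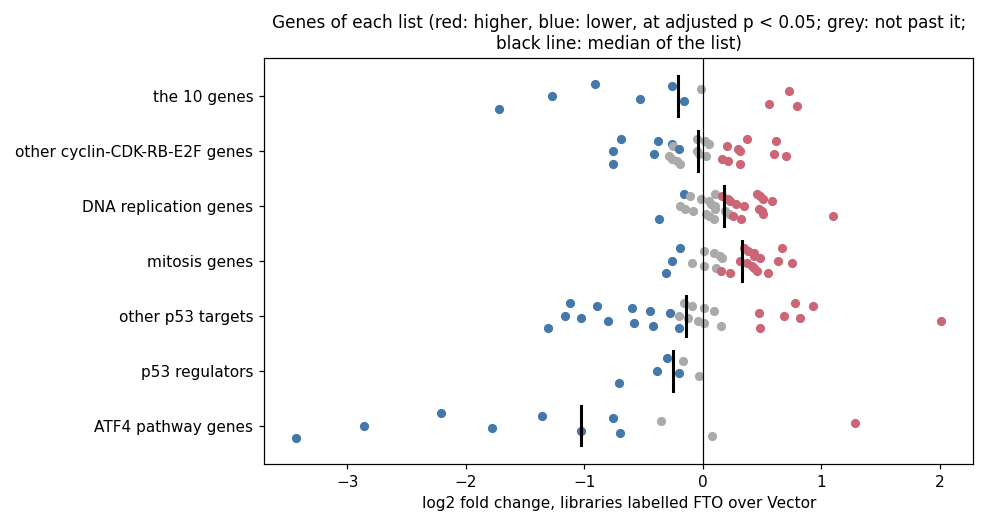
Log2 fold change of the tested genes (1 gene not reported here is left out), libraries labelled FTO over Vector, for the 10 genes and 6 lists around them, with red for higher and blue for lower at an edgeR adjusted p below 0.05, grey for genes that did not pass and a black line at the median of the genes drawn. The medians run from -1.03 for the ATF4 pathway genes to 0.33 for the mitosis genes.

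Of 6 tested genes that regulate p53, 4 fell and 2 did not pass. This is to be read against all genes tested, of which 65.9% passed and 32.8% were called lower. The p53 inhibitor gene Mdm4 fell from 36.8 ± 3.42 to 22.4 ± 1.33 CPM (-0.71) and Atm, a kinase that activates p53 after DNA damage, from 69.7 ± 7.26 to 53.1 ± 6.22 CPM (-0.39).

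Of 28 tested p53 targets beyond Cdkn1a, Mdm2 and Gdf15, 7 were higher, 12 lower and 9 did not pass, with a median log2 fold change of -0.15. The share called was 67.9%, close to the 65.9% of all genes. Among the higher were Gadd45a, a DNA damage response gene, from 20.4 ± 1.08 to 39 ± 5.45 CPM (0.93), and the antiproliferative gene Btg2, from 17.5 ± 0.208 to 30.9 ± 1.77 CPM (0.82). Among the lower was Sesn2, a stress-induced regulator of metabolism, from 88.4 ± 3.48 to 39.4 ± 2.14 CPM (-1.16). The adjusted p-values of these 3 genes were between 1.2e-10 and 7.5e-07 in the edgeR test. The ends of the list were Perp at 2.01 and Fdxr at -1.31, both with lower counts. Genes tied to cell death went both ways. Pmaip1 (-0.89, edgeR adjusted p = 6.4e-08), Tnfrsf10b (-0.45) and Eda2r (-1.03) fell, while Fas (0.47) and Perp rose. Bax did not pass (-0.09, edgeR adjusted p = 0.22).

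Because Gdf15 and Sesn2 also respond to ATF4, genes of that pathway were counted too. Of 11 tested, 8 were lower, 1 higher and 2 did not pass, with a median log2 fold change of -1.03 beside 0.00 over all genes. The share called was 81.8%, against 65.9% of all genes tested, and 32.8% of all genes tested were called lower. Vldlr fell from 462.5 ± 8.65 to 42.8 ± 2.7 CPM (-3.43) and Chac1, a glutathione-degrading enzyme, from 30.4 ± 1.18 to 4.26 ± 0.995 CPM (-2.86), and Atf4 itself was lower by -0.70. Ddit3, which encodes the stress factor CHOP, was the exception and rose from 32.6 ± 0.794 to 79.2 ± 6.49 CPM (1.28). The adjusted p-values of Vldlr, Chac1 and Ddit3 were 4.9e-17, 2.5e-11 and 1.8e-10 in the edgeR test.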

How the data were processed

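Raw read counts by gene symbol, as the authors deposited them, were taken for each of the 6 libraries. The submitters' processing notes name Trimmomatic and the genome build rn6. The aligner, counting program, annotation and use of strand are not given in the sources used here, so no gene coordinates are printed from the files and no level per length was computed. Promoter windows came from RefSeq tables of GRCr8, another build. The genotype label gave the group of a library, and its title gave the replicate number.

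Genes were kept with filterByExpr of edgeR 4.0.16 (R 4.3.3) at a minimum count of 10. All 10 genes passed. Libraries were scaled by TMM (factors 0.995 to 1.01) and tested with glmQLFTest, the quasi-likelihood F test of edgeR, without covariates, with Benjamini-Hochberg adjustment over all 12941 genes tested. CPM are means ± SD of 3 libraries, and the SE was derived from the fold change and F statistic. The precision of low genes is limited by depth, at 76 to 170 counts for Cdkn2a. Wilson intervals were at 95%. No source names molecular identifiers, and these intervals cover counting error only. Replicates of a group differed by more than sampling noise (chi-square per degree of freedom 1.58 to 8.38).

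The 10 genes and the lists were chosen with earlier results of these data known. From each of 6 pathway lists, the 2 largest increases and 2 largest decreases were named among genes called at adjusted p below 0.05, with no overlap between groups and 100 or more counts on average, plus Fto. Of the genes this rule names, 2 are not reported here. Other listed genes were named after their values were seen. Cdkn2d, Bbc3 and Chek1 were not analysed here, and Pidd1, Triap1 and Nupr1 were listed at 2 counts or fewer and not tested. Alternatives were DESeq2 1.42.0, limma-voom (limma 3.58.1), DESeq2 size factors, library size alone, no filter, a mean of at least 10 counts, the replicate number as a block and leaving out each library. The procedure was tested on simulated data. The first simulation exceeded the limit set for false calls of the edgeR test, and the limit was then applied to the mean over several simulations. That mean lay within the limit but above the nominal level.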

Additional observations from a re-analysis of the deposited data

How the results depend on the processing

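Of the 10 genes, 9 passed the adjusted threshold and 2 the threshold of the study under each of the 13 alternatives, and the counts of the 6 lists and of all genes stayed within 1.5 times their values. Cdkn1a changed sign without FTO replicate 1, its log2 fold change over the fits that left out a library running from -0.065 to 0.008, and did not pass in any alternative (adjusted p-value 0.19 to 0.945). The share of D-type cyclin reads from Ccnd1, lower by 7.4 percentage points, was higher by 7.08 when Ccnd3 reads were left out of the total, as this construction gives. Among 32 single genes followed, Slbp lost its call in 7 alternatives, with an adjusted p-value of 0.00495 to 0.146, and the cause was not tested. The widest ranges among the 10 genes were those of Gdf15 (-1.45 to -1.11) and Ccnd2 (-1.85 to -1.64). Replicate numbers did not pair the libraries (deviations of same-numbered libraries correlated across genes at -0.087 to 0.044), and with the replicate number as a block 9 of the 10 genes passed. Depth limits Cdkn2a and Gdf15 most.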
